A study of Mus musculus with 9 samples.

Results

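The SKI and SKOR corepressors are 4 related nuclear proteins encoded in the mouse by Skor1, Skor2, Ski and Skil, and their transcripts were followed in dorsal root ganglia of the lumbar spine, which hold the cell bodies of sensory neurons. The 4 genes, of 55536 in the deposited count tables, were taken by symbol. They were chosen with the Skor2 value of this same comparison known, so the values of the members between groups are a description and carry no test. The icKO group held 5 libraries, labelled Prdm12 inducible conditional knock-out. Prdm12 encodes a zinc finger transcriptional regulator that pain-sensing neurons (nociceptors) need to form. The control group held 4 libraries labelled with a wild type genotype. All 9 came from adult C57Bl6 mice, 1 month after tamoxifen, the drug that switches on the inducible deletion. The sources used here do not give the Cre driver, the deleted exon, whether controls carried a floxed allele or Cre, or whether each library was 1 animal. P-values therefore reflect variation among libraries, part of which may be technical.

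SKI and SKIL (also called SnoN) bind SMAD proteins, the transcription factors that carry TGF-beta, activin and BMP signals into the nucleus, and repress their target genes by bringing in NCoR, SIN3 and histone deacetylases. SKOR1 and SKOR2 carry the same SKI-type domains. In the mouse, Skor1 is known as a corepressor of the homeodomain factor LBX1 in dorsal spinal cord interneurons, and Skor2 is known for its role in cerebellar Purkinje cell development.

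Library totals ranged from 19607740 to 29481589 counts, so 3 counts, used as the floor for a gene with few reads, equalled 0.101 to 0.155 CPM (counts scaled to a common library total with TMM factors). Prdm12 averaged 24.0 ± 1.41 CPM in icKO (SD, n = 5) and 134 ± 20.0 CPM in control (SD, n = 4) (log2 fold change -2.48, SE 0.09, edgeR quasi-likelihood adjusted p = 2.51e-08). The groups did not overlap. The antisense gene Gm13425 shares 200 exonic bases with Prdm12, and whether its reads were kept apart is not known, since the strand setting was not given. Of 17258 genes tested, 147 passed an adjusted p of 0.05, or 0.852%. Of these, 82 were higher in icKO (0.475%) and 65 were lower (0.377%). Summed CPM of 9 sensory neuron markers ran from 9459 to 11250 in icKO libraries and from 9759 to 11346 in control libraries.

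On the mm10 build, Skor2 (ENSMUSG00000091519) lies on the plus strand of chromosome 18 from 76856405 to 76900342, and its 1 annotated transcript has 9 exons. Skor1 (ENSMUSG00000022245) lies on the minus strand of chromosome 9 from 63138170 to 63148961, with 3 transcripts and 9 exons in the longest. Ski (ENSMUSG00000029050) lies on the minus strand of chromosome 4 from 155154075 to 155222592, with 3 transcripts and 7 exons in the longest. Skil (ENSMUSG00000027660) lies on the plus strand of chromosome 3 from 31095058 to 31122577, with 6 transcripts and 7 exons in the longest. No annotated gene overlaps any of the 4, so no annotated antisense partner shares reads with them.

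The members fall into 2 pairs by protein sequence. The longest transcripts encode 964 residues for Skor1, 1008 for Skor2, 727 for Ski and 675 for Skil. SKOR1 and SKOR2 were identical at 58.27% of 774 aligned residues, and SKI and SKIL at 46.66% of 598. Across the pairs the identity of aligned residues was lower, between 31.95% for SKOR1 with SKIL and 35.45% for SKOR2 with SKI. No stretch of 50 bases was shared between the transcripts of any of the 6 pairs of genes, so reads of such a length that match perfectly could not be confused between them. The annotated 3′ untranslated regions differ widely, at 30 bases in Skor2, 695 in Skor1, 3266 in Ski and 3964 in Skil. Reads from an unannotated 3′ end of Skor2 would not have been counted, which limits the comparison of levels between genes.

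Skor2 was higher in every icKO library than in any control library. It had 27.1, 26.7, 28.3, 22.2 and 31.8 CPM in icKO 1 to 5, against 11.8, 11.2, 14.0 and 13.2 CPM in control 1 to 4. The lowest icKO library, icKO 4, lay well above the highest control, and the groups did not overlap. These values rest on 541 to 813 counts in each icKO library and 256 to 385 in each control library. Skor2 averaged 27.2 ± 3.44 CPM in icKO (SD, n = 5) and 12.6 ± 1.28 CPM in control (SD, n = 4), which is 2.17-fold. The log2 fold change was 1.12 (SE 0.10), with a 95% interval of 0.89 to 1.34. It was the 48th highest fold change of the genes tested, and 0.539% of them had a log2 fold change at least that large in either direction. The median size over all genes tested was 0.09. Because the genes were selected on this value, its rank is given only to place it.

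The spread of Skor2 within a group was wider than read counting alone gives. Its coefficient of variation was 12.6% in icKO and 10.2% in control, where counting error alone would give 3.70% in icKO and 5.68% in control. Sex was read from Y-linked genes and Xist, since the labels do not give it. Because the groups did not overlap, Skor2 is higher in icKO under any split of the libraries. Its values by sex are therefore a description. In the 2 icKO and 2 control libraries with high Y-linked counts, the mean log2 CPM of Skor2 differed by 1.06, and in the 3 icKO and 2 control libraries without them by 1.15. In bulk ganglia, more cells that express a gene and more RNA per cell cannot be told apart, for Skor2 or for any gene below.

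Skor1, the closest relative of Skor2, was near the limit of detection in both groups. It had 5, 6, 10, 1 and 8 counts in icKO 1 to 5, against 7, 11, 7 and 6 counts in control 1 to 4. These counts equal 0.0411 to 0.348 CPM in icKO and 0.255 to 0.449 CPM in control, and the groups overlapped. Summed over the group, 30 counts in icKO gave 0.224 CPM (95% Poisson interval 0.151 to 0.320) and 31 counts in control gave 0.314 CPM (0.214 to 0.446). The intervals cover counting error only, and they overlap, but overlap of intervals is not a test of a difference. The few counts leave the size of any difference uncertain. Skor1 was the 1 member that failed the filter on low counts. Without the filter its log2 fold change was -0.48 (SE 0.46).

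Ski, the founding member, was the most abundant of the 4 and lay at about the same level in both groups. It had 71.4, 70.4, 75.3, 65.8 and 83.2 CPM in icKO 1 to 5, against 70.0, 63.6, 75.1 and 79.7 CPM in control 1 to 4. The highest library was icKO 5 and the lowest was control 2, with all others in between, so the groups overlapped. Ski averaged 73.2 ± 6.52 CPM in icKO (SD, n = 5) and 72.1 ± 6.93 CPM in control (SD, n = 4). The log2 fold change was 0.02 (SE 0.08), with a 95% interval of -0.15 to 0.19. Among libraries of high Y-linked counts the mean log2 CPM of Ski differed by -0.03, and among the others by 0.06. Ski had the lowest spread of the members, with a coefficient of variation of 8.91% in icKO and 9.61% in control.

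Skil, whose product SnoN is degraded upon TGF-beta signalling, stood slightly higher in icKO on average, but with overlap. It had 17.8, 19.2, 16.4, 22.6 and 18.5 CPM in icKO 1 to 5, against 16.3, 14.98, 16.9 and 19.2 CPM in control 1 to 4. The library with the most Skil, icKO 4, was the one with the least Skor2 and the least Ski among icKO libraries. Of all 9 libraries, icKO 4 also had the lowest summed sensory neuron markers (9459 CPM) and the highest summed fibroblast markers (2129 CPM). A link between this make-up and its values for the members was not tested. Skil averaged 18.9 ± 2.32 CPM in icKO (SD, n = 5) and 16.9 ± 1.74 CPM in control (SD, n = 4). The log2 fold change was 0.17 (SE 0.10), with a 95% interval of -0.05 to 0.38. For Skil the difference was 0.15 among libraries of high Y-linked counts and 0.16 among the others. Of the 4 members, 3 were tested and 1, Skor2, passed the threshold, against 0.852% of all genes tested. The groups did not overlap for that same member, against 4.5% of all genes tested. Since the comparison served to choose the family, nothing is read from these counts.

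**Figure D1:**
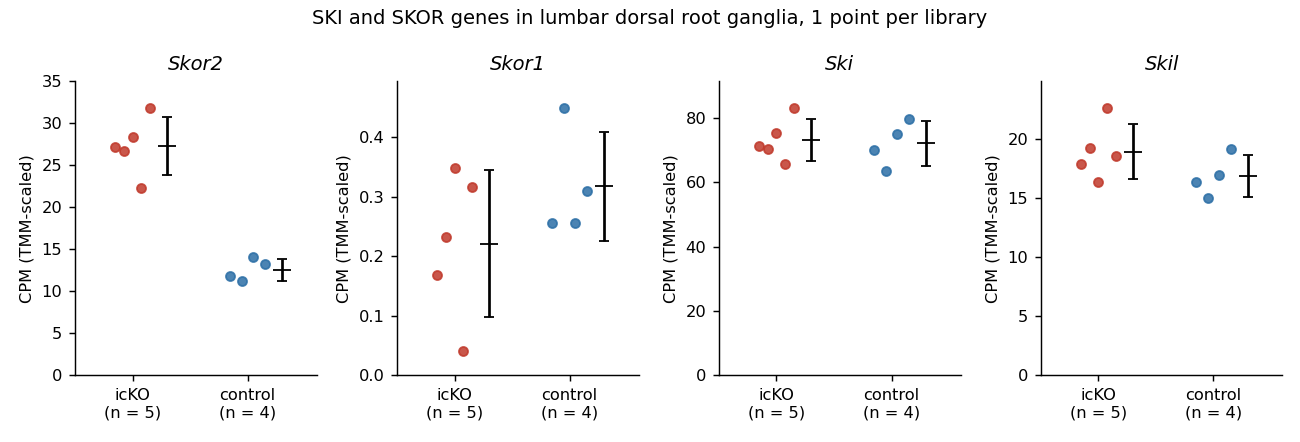
CPM (TMM-scaled, vertical axes starting at 0, a different range in each panel) of the 4 members, with 1 point per library, icKO (n = 5) left of control (n = 4); bars are mean ± SD. Skor2 lies at 22.2 to 31.8 CPM in icKO and 11.2 to 14.0 CPM in control, while the other members overlap between groups.

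To compare levels between the genes, CPM was divided by the length of all annotated exons of a gene merged, in kilobases. On this per-length scale Ski averaged 13.2 in icKO and 13.0 in control, Skor2 8.67 in icKO and 4.00 in control, Skil 1.95 in icKO and 1.74 in control, and Skor1 0.0583 in icKO and 0.0836 in control. The order of levels was therefore Ski, Skor2, Skil and Skor1 in both groups, and within a group no 2 neighbours in that order overlapped. In icKO, Skor2 reached 10.1 and Ski began at 11.8. The length of the longest transcript in place of merged exons kept the order and raised Skil to 2.82 in icKO and 2.51 in control.

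Against 14804 protein-coding genes that passed the filter, Ski stood at percentile 75.4 of levels per length in icKO and 75.0 in control. Skor2 stood at percentile 65.2 in icKO and 45.2 in control. Skil stood at percentile 30.1 in icKO and 28.2 in control. Skor1 lay at the very low end in both groups, at percentile 0.304 in icKO and 0.838 in control. Because Skor1 failed that filter for its low counts, a low place among genes that passed was largely fixed in advance. Skor2 was thus a gene of middling level in control ganglia, well above the floor of 3 counts.

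**Figure D2:**
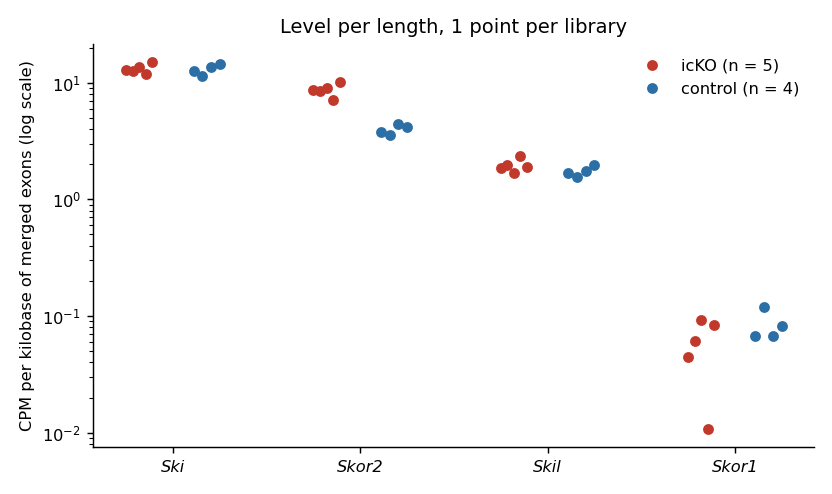
CPM per kilobase of merged exons (log scale) for the 4 members, with 1 point per library, icKO (red, n = 5) left of control (blue, n = 4). The order Ski, Skor2, Skil, Skor1 holds in both groups, and the distance between Ski and Skor2 is smaller in icKO.

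Ratios between members within a library do not depend on how the libraries were scaled. The ratio of Skor2 to Ski per length was 0.673, 0.671, 0.666, 0.599 and 0.677 in icKO 1 to 5, against 0.298, 0.313, 0.331 and 0.293 in control 1 to 4. It averaged 0.657 ± 0.0329 in icKO (SD, n = 5) and 0.309 ± 0.0169 in control (SD, n = 4). Apart from icKO 4, the icKO libraries sat within a narrow band, and the groups were far apart. The family was chosen with the Skor2 difference known, so ratios and shares that include Skor2 restate that difference and carry no test. Skor2 made up 36.3% ± 1.67 of the summed per-length level of the family in icKO and 21.3% ± 0.962 in control. The family sum was 23.8 ± 2.13 CPM per kilobase in icKO and 18.8 ± 1.75 in control, with a range of 21.3 to 27.1 in icKO and 16.7 to 20.6 in control.

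The ratio of Skor2 to Skil was 4.53 ± 0.945 in icKO and 2.31 ± 0.186 in control. It varied more among icKO libraries, between 3.04 in icKO 4 and 5.34 in icKO 3, but every one of them lay above the highest control at 2.56. The ratio of Ski to Skil was 6.86 ± 1.20 in icKO and 7.46 ± 0.207 in control, and these groups overlapped. Its lowest value, 5.07, belonged to icKO 4, so the balance of the SKI pair varied within icKO more than it differed between groups.

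**Figure D3:**
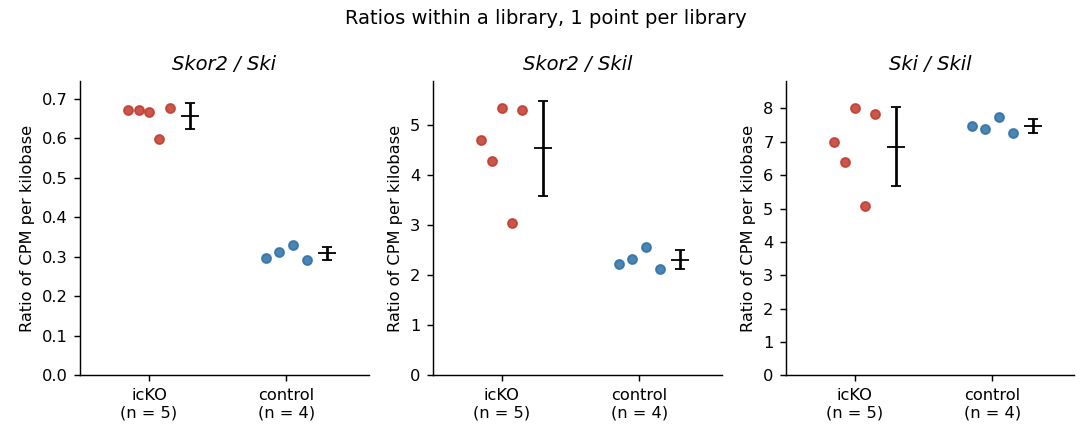
Ratios of CPM per kilobase between members within each library (vertical axes starting at 0), icKO (n = 5) left of control (n = 4), with bars for mean ± SD. The ratio of Skor2 to Ski is 0.599 to 0.677 in icKO and 0.293 to 0.331 in control, while the ratio of Ski to Skil overlaps between groups.

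The genes through which SKI proteins act were examined in 7 lists holding 69 genes, of which 68 passed the filter and Acvr1c did not. Of the 68, 1 rose in icKO (Id2) and 0 fell by edgeR's quasi-likelihood test at an adjusted p of 0.05, against 0.475% higher and 0.377% lower of all genes tested. Before adjustment 6 had p under 0.05, against 1917 of all 17258. In 4 of the 68 the groups did not overlap, against 4.5% of all genes tested. The median log2 fold change was 0.02 over the lists and -0.00 over all genes tested, and 40 of the 68 were positive.

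Among 14 ligands of the TGF-beta, activin and BMP families, 0 passed the threshold and the median log2 fold change was 0.04. Inhbb, which encodes the activin B subunit, had 3.87, 5.58, 4.60, 3.13 and 4.54 CPM in icKO 1 to 5, against 6.05, 6.70, 8.16 and 6.90 CPM in control 1 to 4. Its icKO libraries all lay below the controls, and its log2 fold change was -0.68 (SE 0.16, edgeR adjusted p = 0.069). Gdf11, a ligand close to myostatin, averaged 18.5 ± 2.18 CPM in icKO (SD, n = 5) and 24.9 ± 3.13 CPM in control (SD, n = 4) (log2 fold change -0.43, SE 0.10, edgeR adjusted p = 0.081). Its groups overlapped only between icKO 3 at 21.0 CPM and control 2 at 20.6 CPM. Bmp4, a BMP ligand, was scattered, with 0.968 to 5.59 CPM in icKO and 0.916 to 2.42 CPM in control, and its adjusted p was 0.424 by edgeR.

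Of 13 receptors and coreceptors, 12 were tested and 0 passed, with a median log2 fold change of -0.00. Tgfbr1, the type I TGF-beta receptor, had 34.0, 32.2, 32.5, 33.2 and 28.9 CPM in icKO 1 to 5, against 26.4, 23.8, 28.9 and 28.4 CPM in control 1 to 4. The groups only just separated, since icKO 5 lay at 28.942 CPM and control 3 at 28.9015 CPM. The log2 fold change was 0.26 (SE 0.07, edgeR adjusted p = 0.134). Bmpr1b, a type I BMP receptor, averaged 7.08 ± 0.649 CPM in icKO (SD, n = 5) and 8.76 ± 0.756 CPM in control (SD, n = 4), with no overlap and an adjusted p of 0.237 by edgeR. Acvr2a, a type II activin receptor, had a log2 fold change of 0.14 and an adjusted p of 0.573 by edgeR.

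The 8 SMAD genes lay close to 0, with log2 fold changes between -0.19 and 0.11 and a median of 0.01, and 0 passed. The lowest was Smad7, an inhibitory SMAD, at 4.52 ± 0.598 CPM in icKO (SD, n = 5) and 5.16 ± 1.56 CPM in control (SD, n = 4). Smad1, a SMAD of the BMP branch, averaged 44.5 ± 4.85 CPM in icKO and 41.1 ± 2.97 CPM in control, and Smad9, of the same branch, 64.7 ± 5.48 CPM in icKO and 69.9 ± 9.42 CPM in control. All 3 overlapped between groups.

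Of 14 genes known as SMAD targets, 1 rose, and the median log2 fold change was 0.08. The 1 was Id2, an inhibitor of helix-loop-helix transcription factors and a known BMP target. It had 43.7, 39.3, 31.3, 43.1 and 35.2 CPM in icKO 1 to 5, against 25.4, 26.8, 29.3 and 28.3 CPM in control 1 to 4. The groups did not overlap, and icKO 3 came closest to the controls. Id2 averaged 38.5 ± 5.28 CPM in icKO (SD, n = 5) and 27.5 ± 1.71 CPM in control (SD, n = 4) (log2 fold change 0.49, SE 0.10, edgeR quasi-likelihood adjusted p = 0.0333). The call was close to the threshold. With 1 library left out, the edgeR adjusted p became 0.0951 (icKO 1), 0.0683 (icKO 2), 0.0767 (icKO 4), 0.0913 (control 1), 0.0685 (control 2), 0.0584 (control 3) or 0.0622 (control 4), with the log2 fold change between 0.44 and 0.56 over all 9 omissions. Among libraries of high Y-linked counts the mean log2 CPM of Id2 differed by 0.60, and among the others by 0.40. The related Id1 and Id3 had log2 fold changes of 0.28 and 0.17, with adjusted p of 0.526 and 0.577 by edgeR, and their groups overlapped.

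The genes of the proteins that SKI brings to its targets had log2 fold changes close to 0 as well. Of 12 corepressor and deacetylase genes 0 passed, with a median log2 fold change of 0.00. Tbl1x, a subunit of the NCoR complex, had a log2 fold change of -0.07 and Sin3b, a SIN3 scaffold, 0.05. The 6 ubiquitin ligase genes whose products act on SKI and SnoN lay between -0.08 and 0.09, and 0 passed. Among them Smurf2 averaged 42.1 ± 1.47 CPM in icKO and 39.4 ± 0.825 CPM in control, Rnf111 (Arkadia) 35.7 ± 1.61 CPM in icKO and 37.7 ± 2.02 CPM in control, and Trim33 46.4 ± 2.16 CPM in icKO and 47.0 ± 2.96 CPM in control. The 2 DACH genes, whose products carry a SKI-like domain, had log2 fold changes of 0.10 for Dach1 and -0.48 (SE 0.27) for Dach2, with adjusted p of 0.811 and 0.571 by edgeR.

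**Figure D4:**
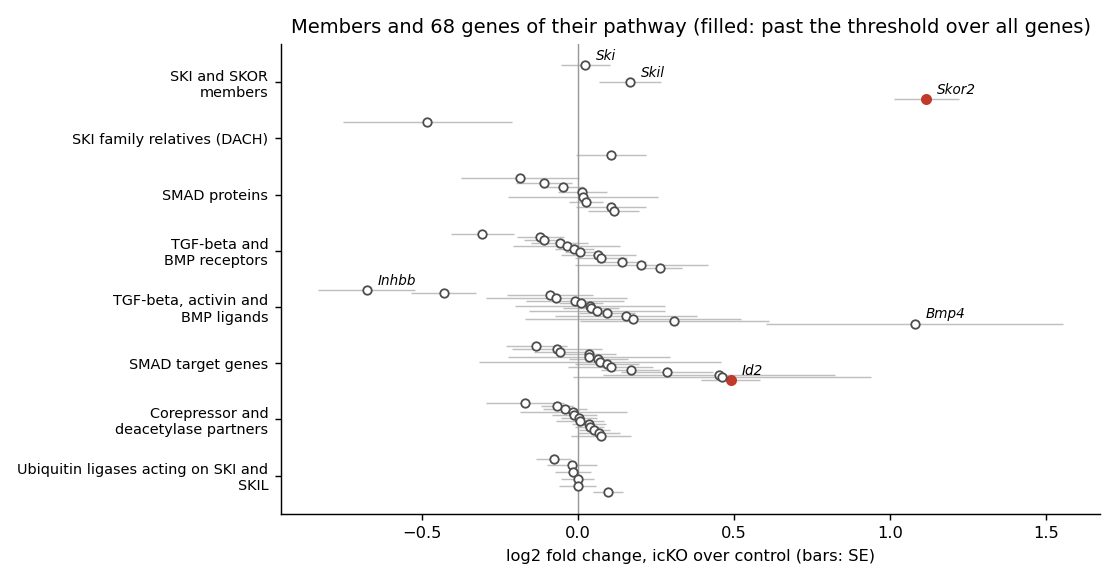
Log2 fold change of icKO over control with its SE (horizontal axis) for the 3 tested members and 68 pathway genes, grouped by list down the page, where filled points passed an adjusted p of 0.05 over all genes tested. Skor2 at 1.12 and Id2 at 0.49 are the filled points, and 56 of the 68 pathway genes sit within 0.2 of 0. The members were chosen with the Skor2 value known, so its filled point is a description and carries no test.

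Skor1 and Skor2 are both known from spinal cord, so markers of tissue beside the ganglion were set next to the Skor2 values. Of 13 spinal interneuron and glial markers, Lbx1, Lhx1, Lhx5, Slc32a1 and Olig2 had at most 1 count in any library. Slc6a5, Gad2, Olig1 and Mog had at most 12, 6, 10 and 5 counts, and each was at 0 in at least 1 library. Pax2, Pax8, Gad1 and Aqp4 were present in every library. Pax2 lay at 0.699 to 1.54 CPM in icKO and 0.510 to 1.13 CPM in control, and Gad1 at 1.05 to 1.28 CPM in icKO and 1.02 to 1.55 CPM in control. Pax8 lay at 1.007 to 1.81 CPM in icKO and 1.80 to 2.53 CPM in control. Summed over the 13 markers, the level was 16.1 to 20.7 CPM in icKO and 14.4 to 40.1 CPM in control. The highest value, in control 4, came mostly from Aqp4, at 34.2 CPM in that library. Slc6a5 (0.618 CPM), Olig1 (0.515 CPM), Gad2 (0.309 CPM) and Mog (0.206 CPM) were also highest in control 4. Pax2, Pax8 and Gad1 were highest in other libraries. Skor2 in control 4 was 13.2 CPM. The part of spinal tissue in the Skor2 values was not tested.

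The summed log2 CPM of 10 cell type lists was compared between groups by two-sided exact permutation tests over the 126 assignments of libraries, whose smallest possible p is 0.00794. The lists were spinal cord, sensory neuron, nociceptor, satellite glia, Schwann cell, macrophage, vascular, fibroblast, erythroid and skeletal muscle markers, and the lowest adjusted exact p of the 10 was 0.794. After adjustment over 10 lists a single fully separated list could reach only 0.0794, so this design could not have called 1 list alone, and the values do not show that composition was equal. Of 9 sensory neuron markers 0 passed edgeR's test, which is near the 0.852% of all genes tested. Of 8 nociceptor markers 1 passed it, lower in icKO, against 0.377% lower of all genes tested, and the rest did not. Summed over the 8, levels ran from 5063 to 5892 CPM in icKO and from 5127 to 6573 CPM in control. Expressed relative to the mean log2 CPM of the sensory neuron markers in the same library, the log2 difference of Skor2 was 1.13.

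Of all genes tested, 0.852% passed the threshold in either direction, so a count of 0 among a few neighbours is near that share. Around Skor2, 5 of 7 protein-coding entries within 500 kb were tested and 0 passed, with log2 fold changes between -0.42 and 0.10. The nearest, Ier3ip1, lies 29675 bases away and had 43.6 CPM in icKO and 40.6 CPM in control on average. The nearest tested entry of Hdhd2, 43750 bases away, averaged 39.4 CPM in icKO and 38.9 CPM in control. Around Skor1, 9 of 10 neighbours were tested and 0 passed, and the nearest, Map2k5 and Pias1, had log2 fold changes of -0.00 and 0.01. Around Skil, 10 of 12 were tested and 0 passed, and the nearest, Cldn11 and Prkci, had 0.27 (adjusted p 0.884 by edgeR) and -0.03. Around Ski, 21 of 25 were tested and 1 fell, against 0.377% of all genes tested. It was Plch2, a phospholipase C gene 97291 bases away. Plch2 averaged 4.19 ± 0.675 CPM in icKO (SD, n = 5) and 7.74 ± 0.671 CPM in control (SD, n = 4) (log2 fold change -0.88, SE 0.13, edgeR adjusted p = 0.00498). Morn1 and Faap20, which lie nearer to Ski, had log2 fold changes of -0.05 and -0.03.

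Genes with the profile most like a member were named by the root mean square difference of log2 CPM over the 9 libraries, each gene centred on its own control mean. Genes picked in this way share the contrast of the member by construction, so their differences are given with no test. For Skor2 the nearest of 13421 protein-coding genes was Ism1, which encodes the secreted protein isthmin, at 0.122, where the median gene was at 0.850. Ism1 had 9.22, 7.86, 8.78, 8.43 and 9.83 CPM in icKO 1 to 5, against 4.29, 3.96, 4.56 and 4.33 CPM in control 1 to 4. As with Skor2, its highest library was icKO 5 and its highest control was control 3. The choice over all 9 libraries favours such a match as well.

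Next came Agtr1a, an angiotensin II receptor, at a difference of 0.197, with 43.0 to 54.4 CPM in icKO and 18.7 to 29.1 CPM in control. Cfap206, a cilium gene, followed at 0.226, with 23.5 to 30.9 CPM in icKO and 11.1 to 14.5 CPM in control. Cysltr2, a leukotriene receptor, stood at 0.243, with 26.1 to 37.7 CPM in icKO and 12.8 to 16.97 CPM in control. Stk32a, a protein kinase gene, stood at 0.282, with 41.5 to 49.1 CPM in icKO and 15.4 to 23.2 CPM in control. In none of these 5 did the groups overlap. The library icKO 4, the lowest icKO library for Skor2, was the highest one for Cfap206 and Stk32a.

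**Figure D5:**
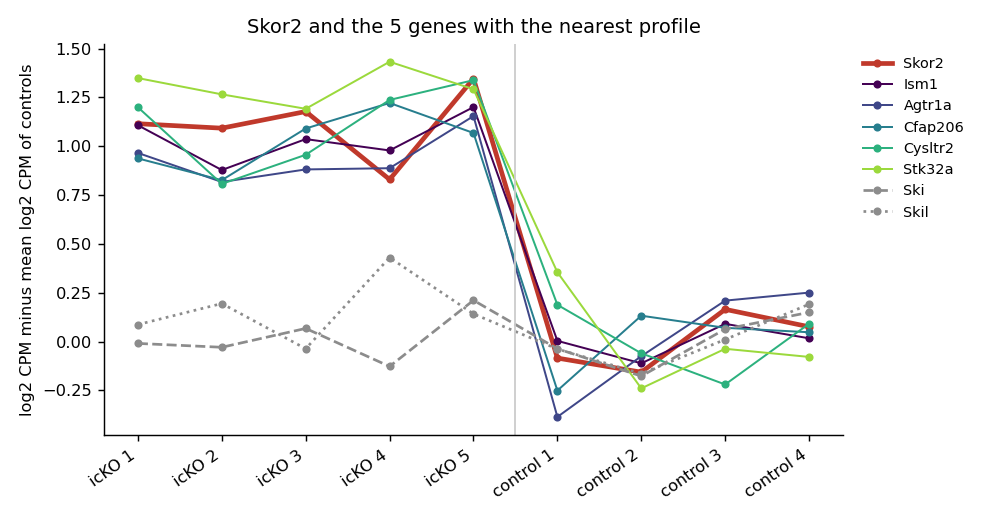
Log2 CPM minus the mean log2 CPM of the controls, for Skor2, its 5 nearest genes, Ski and Skil. Each of the 5 icKO libraries (left) and 4 control libraries (right) is shown. Lines join the values of a gene and carry no order. Skor2 and its nearest genes sit near 1 in icKO and near 0 in control, while Ski and Skil stay near 0 in both.

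For Ski the nearest genes were Hnrnpul2, Plekha6 and Zfp319, at differences of 0.0406, 0.0421 and 0.0461, where the median gene was at 0.183. Hnrnpul2, an RNA-binding protein gene, had a log2 fold change of 0.01, Plekha6 -0.00 and Zfp319, a zinc finger gene, 0.05. For Skil they included Tmem159 and Cnr1, at 0.0820 and 0.0832, where the median was 0.234. Of these Cnr1, the cannabinoid receptor gene, had a log2 fold change of 0.11 and Tmem159 0.22. For Skor1 they were Ung, Cr2 and Pcdh8, at 0.299, 0.304 and 0.324, where the median was 0.660, but the Skor1 profile rests on 1 to 11 counts per library.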

How the data were processed

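Messenger RNA of lumbar dorsal root ganglia was sequenced in 9 libraries, grouped by genotype as titled. The authors deposited raw counts per gene. The submitters' processing notes name mm10, featureCounts 1.5.0-p1, STAR 2.5.2a and bcl2fastq 2.20.0.422. The annotation release, strand setting and treatment of multi-mapped reads were not given in the sources used here. All 55536 identifiers were found in GENCODE vM21, which gave symbols, positions, exon lengths and transcripts (Python 3.11.15, Biopython 1.88). Proteins were translated from the longest coding transcripts and aligned with no penalty for gaps at the ends. Identity is given over aligned residues only.

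Genes were kept by the filterByExpr rule of edgeR 4.0.16 (minimum count 10, minimum total count 15), leaving 17258 genes and 99.9% of counts. Counts were scaled by TMM and compared with edgeR's quasi-likelihood test in R 4.3.3, tested on simulated data, with Benjamini-Hochberg adjustment over all genes tested. Log2 fold changes are icKO over control. Intervals and floors cover counting error only, except those of fold changes. Replicates of a group differed by more than sampling noise (chi-square per degree of freedom 6.00 to 23.04), so each library counted once.

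The members and the gene lists were chosen with earlier results of these data known. Named genes are the members, Prdm12, up to 3 genes per pathway list by smallest p, protein-coding neighbours within 500 kb past the threshold or else the 2 nearest tested, and the nearest profiles (5 for Skor2, 3 for the others, mean of at least 1 CPM). The spinal markers were named beside these. Some genes that met the rule are left out of the text. Alternatives were other normalizations, dispersions and filters, DESeq2 1.42.0, limma 3.58.1 voom, sex as a covariate, a replicate block, leaving out each library, and other gene lengths.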

Additional observations from a re-analysis of the deposited data

Results flagged for a closer look

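Among 48 groups of 4 or 5 libraries examined for the 4 members, Prdm12 and the named pathway genes, 3 held a library far from the others by Dixon's criterion, where chance alone gives about 1 in 20. Dach1 had 10.7 CPM in icKO 4, against 12.5 to 12.9 CPM in the other icKO libraries. Id3 had 44.8 CPM in control 4, against 48.8 to 49.4 CPM in the other controls. Tbl1x had 64.7 CPM in control 2, against 71.8 to 73.1 CPM in the other controls. No library of Skor2, Skor1, Ski or Skil stood apart in this way.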

How the results depend on the processing

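Over 21 alternatives the log2 fold change of Skor2 ran from 1.06 to 1.19. That of Skil ran from 0.10 to 0.23, and that of Ski from -0.03 to 0.07, positive in 17 and negative in 4. The ratio to neuronal markers was added after seeing the data. Skor1 fails the count filter and has no value in these fits beyond the unfiltered one. The number of genes called higher, 82, became 172 with no filter, 197 with DESeq2 and 28 with the replicate block, and 45 to 85 when 1 library was left out (45 without icKO 1). The number called lower, 65, became 221 with no filter, 234 with DESeq2 and 20 with the replicate block, and 33 to 90 when 1 library was left out. The library left out gave 33 for icKO 1, 34 for icKO 3, 35 for icKO 4, 38 for icKO 5, 43 for control 1 and 37 for control 3. Of the pathway genes, 1 higher became 2 with DESeq2 (Id2 and Tgfbr1), 0 with the replicate block and 0 to 1 when 1 library was left out. The 0 lower became 2 (Inhbb and Gdf11) with no filter and with DESeq2, and 0 to 1 when 1 library was left out (Inhbb without icKO 2, Gdf11 without control 2). The mean level of Skil per length over all libraries, 1.86, was 2.68 with the longest transcript, which is shorter than the merged exons. Other causes were not tested. Libraries of the same number did not deviate together (correlations 0.103, -0.178, -0.0430 and 0.181), and 1 of 4 icKO and 0 of 4 control libraries correlated best with their own number, so the numbers do not pair them. Under the block the log2 fold change of Skor2 was 1.06, and the adjusted p by edgeR was 0.13 for Id2 and 0.0701 for Plch2. Depth limits Skor1, with at most 11 counts in a library.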
